A study of Homo sapiens with 6 samples.

Results

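SOX17, PRDM1, TFAP2C, SOX15, TCL1A, KIT, CXCR4, PDPN, NANOS3 and ALPL are specifiers of human primordial germ cells and markers of seminoma, and these 10 genes were chosen by name and matched to Ensembl identifiers. The 10 genes and the gene lists used below were chosen with earlier results of these data known. All 10 were found among the 62700 genes measured, and all 10 were among the 14292 genes tested. They were measured by sequencing of polyadenylated RNA from TCam-2, an established human cell line of testicular cancer with seminoma characteristics. There were 3 groups of 2 libraries. WT cells were not transduced, GFP cells carried GFP_FLAG, and RBMXL3 cells carried RBMXL3_FLAG, a tagged relative of the RNA-binding protein RBMX. WT and GFP were the study's negative controls for differential expression and splicing upon RBMXL3 overexpression. Both transduced groups carry a tagged insert and WT carries none, so GFP is the control that shares transduction. The vector, its promoter, and whether the transduced cells were a clone or a pool are not given in the sources used here. The labels do not say that the libraries of a group came from separate cultures, so the p-values measure only the spread between these libraries, which may be technical.

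Primordial germ cells are the embryonic founders of sperm and eggs. In human embryos SOX17 acts at the top of their specification, with PRDM1 (also called BLIMP1) restraining somatic genes and TFAP2C opening the germ cell program. NANOS3 protects the young germ cells from death, and the receptors KIT and CXCR4 carry survival and homing signals while the cells migrate to the gonad. Seminoma is thought to arise from germ cells arrested at this stage, and it keeps these factors together with PDPN (podoplanin, the antigen of the D2-40 antibody) and alkaline phosphatase activity, both used in diagnosis.

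The RBMXL3 libraries were the shallowest, with 17685680 and 21023355 recovered reads against 23080795 to 29318007 in the controls. RBMXL3 itself had 84 and 68 reads in the cells transduced with it and 0 reads in all 4 control libraries, where a count of 0 allows up to 3 reads. The SOX17 of seminoma was abundant in TCam-2, while SOX2, the corresponding factor of embryonal carcinoma, had a normalised read count of 11.7 to 34.2. Other embryonal carcinoma markers varied in WT cells, with means of 1971 for DNMT3B, 831 for DNMT3L, 373 for FGF4 and 162 for DPPA2. GDF3 had a mean of 59.5 there, TNFRSF8 31.2 and LEFTY2 2.96. Markers of other cell types were summed over 7 lists of 8 genes. The choriocarcinoma sum was 609 to 660 normalised reads in WT, 766 to 812 in GFP and 971 to 1171 in RBMXL3, and the leukocyte sum 55.9 to 65.4, 69.3 to 78.4 and 109 to 111. The endothelial sum was 741 to 751 in WT cells, 616 to 736 in GFP and 497 to 583 in RBMXL3 cells. TEK, with means of 459, 395 and 253 in that order, was the 1 of its 4 tested genes that passed against GFP. CDH5 went the other way without passing, with means of 28.6, 27.5 and 46.6. The fibroblast sum, carried by COL1A2, was 9324 to 10437 in WT cells, 12967 to 14512 in GFP and 13600 to 14322 in RBMXL3 cells. Of its 6 tested genes, 2 passed against GFP, both higher and both also higher against WT. They were COL3A1, with means of 119, 211 and 497 in WT, GFP and RBMXL3 cells, and LUM, with 72.5, 155 and 423. The embryonal carcinoma sum was 3425 to 3483, 4380 to 4713 and 4224 to 4398 in that order. The yolk sac sum was 697 to 700, 790 to 820 and 824 to 869. Of its 3 tested genes, FOXA2 passed higher against both controls, with means of 26.1, 24.7 and 75.7 in WT, GFP and RBMXL3 cells. GATA6 passed lower against both, with means of 96.9, 98.2 and 55.3. The Sertoli sum was 1112 to 1179, 1065 to 1082 and 1218 to 1281. AFP, TTR, CD3E and ROBO4 had no read in any library and PTPRC had at most 1.06. The part of depth or of these markers in the results below was not tested.

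The 10 genes spanned a wide range of levels, with TFAP2C at the top. Levels of different genes were compared per length, as TPM (salmon's abundance per length on a common total) summed over the transcripts of a gene. In WT cells the group means fell in the order TFAP2C at 667 ± 75.3 (SD, n = 2) TPM, PDPN at 332 ± 24.0, ALPL at 301 ± 15.9, CXCR4 at 237 ± 17.1, SOX17 at 149 ± 1.24 and SOX15 at 126 ± 14.4. PRDM1 at 27.8 ± 0.529, TCL1A at 10.7 ± 1.88, NANOS3 at 6.94 ± 0.0884 and KIT at 5.31 ± 1.35 TPM were the low members. Every neighbour in this order was separated in WT cells, in that the lowest library of the upper gene exceeded the highest of the lower gene. In GFP the order was the same, but the libraries of PDPN and ALPL overlapped, and so did those of ALPL and CXCR4. In RBMXL3 cells SOX15 (158 ± 1.37) stood above the mean of SOX17 (134 ± 17.9), with overlapping libraries, and PRDM1 (17.2 ± 3.26) overlapped TCL1A (15.2 ± 1.20).

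The place of KIT in this order depended on the measure. By normalised reads per kilobase of the longest transcript, KIT had 480 ± 23.9 (SD, n = 2) in WT cells, close to PRDM1 at 504 ± 30.4 and above TCL1A at 156 ± 22.9 and NANOS3 at 116 ± 3.07. The ratio of reads per kilobase to TPM was 74.0 to 115 for KIT and 9.17 to 25.3 for the other 9 members. The summed TPM covers only transcripts with a gene in GENCODE 29, the annotation used here, which were 79.9% of all listed transcripts and held at least 94.6% of the TPM of each library. Whether other transcripts of KIT are among the rest was not tested, so the TPM of KIT may be incomplete.

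**Figure D1:**
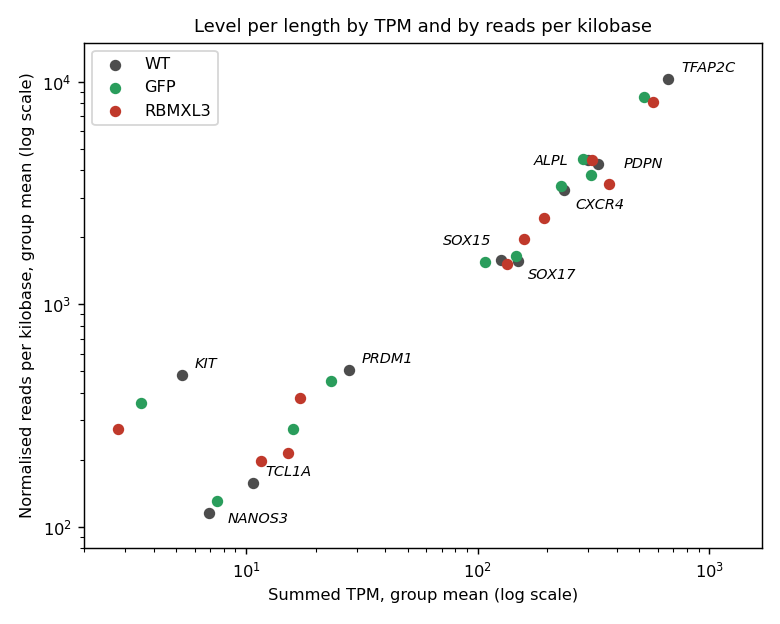
Group means of summed TPM (horizontal, log scale) and of normalised reads per kilobase of the longest transcript (vertical, log scale) for the 10 genes, with points coloured by group and names beside the WT point. TFAP2C is highest by both measures, and KIT lies apart from the band of the other 9 genes, with 480 reads per kilobase at 5.31 TPM in WT.

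Between groups, 4 of the 10 genes changed in the same direction in RBMXL3 cells against both controls: SOX15 and NANOS3 rose, and KIT and CXCR4 fell. The background for that count, the share of all tested genes that passed against both controls in the same direction, was 13.7%, of which 6.88% higher and 6.86% lower. Against WT alone PRDM1 also fell and TCL1A rose, while SOX17, TFAP2C, PDPN and ALPL passed in no comparison of RBMXL3 cells. Both comparisons use the same RBMXL3 libraries. All differences of the 10 genes were under 1 on the log2 scale, and in bulk RNA fewer cells with a transcript and less of it per cell cannot be told apart.

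**Figure D2:**
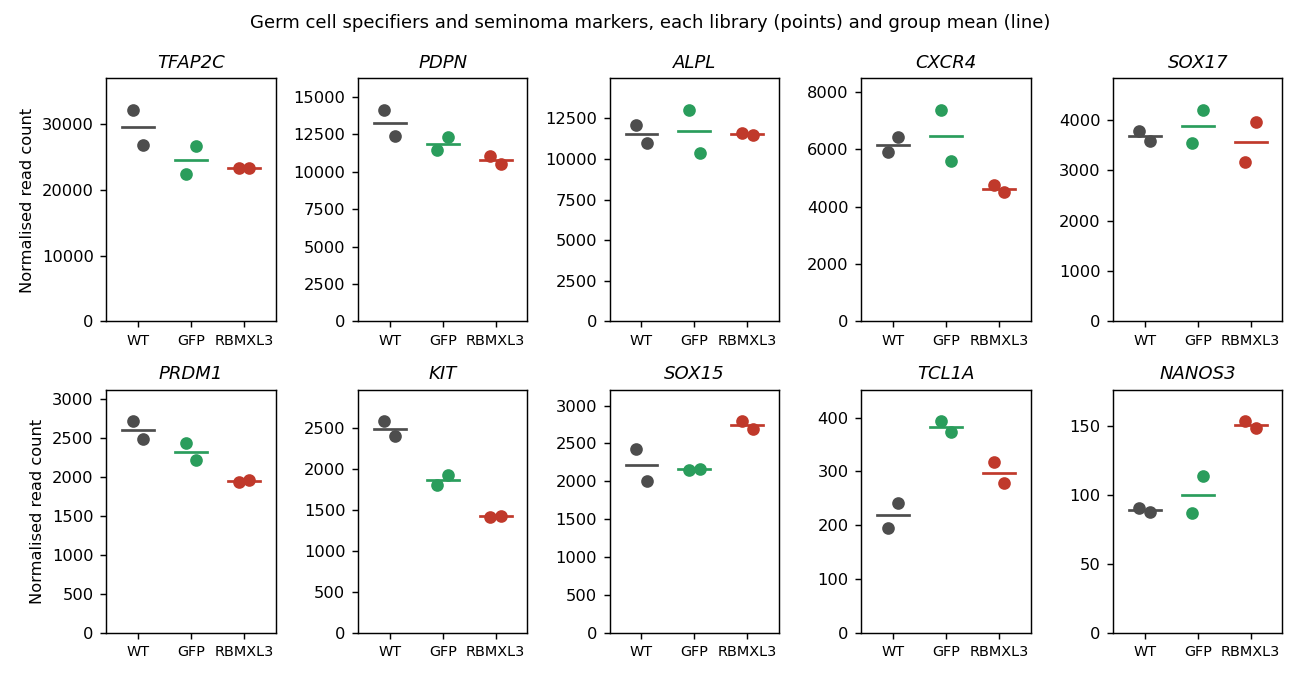
Normalised read count (vertical, linear scale from 0) of each gene in each library, with WT, GFP and RBMXL3 on the horizontal axis, points for the 2 libraries of a group and lines for the group mean. Both RBMXL3 libraries lie above all 4 controls for SOX15 and NANOS3 and below all 4 for PRDM1, KIT, CXCR4 and PDPN.

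Among the transcription factors, SOX17 (ENSG00000164736.6), the SOX-family factor that starts the human germ cell program, lies on chromosome 8. It had normalised read counts of 3769 and 3585 in WT cells, 3547 and 4189 in GFP cells, and 3170 and 3951 in RBMXL3 cells. The RBMXL3 libraries were the farthest apart of any group and enclosed the WT values. The difference was -0.12 (SE 0.12) against GFP and -0.05 (SE 0.12) against WT on the log2(value + 1) scale, with limma adjusted p-values of 0.504 and 0.764. The 95% interval against GFP was -0.38 to 0.14 and reflects only the spread between these libraries.

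TFAP2C (ENSG00000087510.7, chr20:56629302-56639283), the AP-2 factor that works beside SOX17, was at the 99.4th percentile of all tested genes. Its normalised read counts were 32067 and 26807 in WT cells, 22434 and 26580 in GFP cells, and 23302 and 23226 in RBMXL3 cells. Both RBMXL3 libraries lay within the GFP range and below WT. The differences of -0.07 (SE 0.13) against GFP and -0.33 (SE 0.13) against WT had limma adjusted p-values of 0.735 and 0.0635.

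PRDM1 (ENSG00000057657.17, chr6:106086320-106109939), the zinc-finger repressor of somatic genes, had 2713 and 2491 normalised reads in WT cells, 2440 and 2213 in GFP cells, and 1942 and 1968 in RBMXL3 cells. The groups did not overlap and stepped down from WT to GFP to RBMXL3. PRDM1 fell against WT, by 0.41 on the log2 scale (SE 0.098, limma adjusted p = 0.00891). Its difference of -0.25 (SE 0.098) against GFP did not pass (adjusted p = 0.0931), nor did the -0.16 of GFP against WT (adjusted p = 0.356). Without WT replicate 1 the fall against WT was 0.35 with an adjusted p of 0.0948, and without either RBMXL3 library its adjusted p was 0.108 or 0.101.

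SOX15 (ENSG00000129194.8, chr17:7588178-7590170), a SOX factor of early human germ cells, moved the other way. It had 2427 and 2007 normalised reads in WT cells, 2154 and 2162 in GFP cells, and 2790 and 2696 in RBMXL3 cells. Both RBMXL3 libraries exceeded every control, and the WT and GFP values overlapped. SOX15 rose by 0.34 against GFP (SE 0.11, limma adjusted p = 0.0376) and by 0.31 against WT (SE 0.11, adjusted p = 0.0430). The rise against WT was 0.17 with an adjusted p of 0.298 without WT replicate 2, the lower of the pair. Without either RBMXL3 library the adjusted p was 0.267 or 0.210 against GFP and 0.266 or 0.199 against WT. Exons of SOX15 share 15 bases with MPDU1 on the opposite strand, 0.973% of its exon length.

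The 21 partners of germ cell specification gave the setting for these factors, and 8 of the 19 that were tested passed against GFP, 4 in each direction, beside 20.9% of all tested genes. Against WT 9 passed, 4 higher and 5 lower, beside 29.9% of all genes, and 5 passed between GFP and WT, 2 higher and 3 lower, beside 3.67%. Their median differences were 0.02, -0.05 and 0.04, and those of all genes 0.00087, -0.01 and -0.0078. The arginine methyltransferase PRMT5, a partner of PRDM1 in germ cells, fell by 0.49 against GFP and 0.38 against WT (limma adjusted p = 0.00910 and 0.0221). WDR77, the subunit that works with PRMT5, fell by 0.57 and 0.40 (adjusted p = 0.00339 and 0.0141). LIN28A, an RNA-binding protein that holds back let-7, fell by 0.37 and 0.33 (adjusted p = 0.0345 and 0.0412). CD38, a surface enzyme used to mark human germ cells, rose by 0.36 and 0.35 (adjusted p = 0.0213 and 0.0195).

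A further list held SOX factors, the AP-2 factors TFAP2B and TFAP2E, and TFAP4, which is not an AP-2 factor. TFAP2B and TFAP2E were too low to be tested, so the list says nothing of AP-2 relatives. The genes that passed were all higher in RBMXL3 cells. Against GFP they were 4 of 8 tested, beside 10.5% of all genes higher. Against WT they were 3 of 8, beside 14.6% higher and 29.9% in either direction. The medians of the 8 were 0.27 and 0.32. SOX4 had 1927 and 1671 normalised reads in WT cells, 1481 and 1890 in GFP cells, and 3310 and 3395 in RBMXL3 cells, a rise of 0.99 against GFP and 0.89 against WT (limma adjusted p = 0.000449 and 0.000342). SOX9, a factor of Sertoli cells, rose by 0.49 and 0.60 from a low level (adjusted p = 0.0337 and 0.0101). TFAP4 and SOX2 passed against GFP only and SOX12 against WT only; these 3 were named after their values were seen. DESeq2 called 1 of the list against GFP, where limma called 4. Between GFP and WT limma, edgeR and DESeq2 called 0 of the 8. There 1 had an unadjusted limma p under 0.05, beside 3190 of all 14292 tested genes.

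Of the surface proteins, KIT (ENSG00000157404.17, chr4:54657918-54740715), the receptor tyrosine kinase for stem cell factor, had the largest difference of the 10 genes between RBMXL3 and WT. It had 2578 and 2403 normalised reads in WT cells, 1802 and 1926 in GFP cells, and 1411 and 1429 in RBMXL3 cells. The groups did not overlap, and GFP lay between the others. KIT fell by 0.39 in RBMXL3 cells against GFP (SE 0.096, limma adjusted p = 0.0150) and by 0.80 against WT (SE 0.096, adjusted p = 0.000159). It also fell by 0.41 in GFP cells against WT (SE 0.096, limma adjusted p = 0.0407). The cause of these falls was not tested. The KIT fall against WT held without any 1 library, whereas the fall against GFP had adjusted p-values of 0.165 and 0.161 without either RBMXL3 library. The fall in GFP cells did not pass without either WT library (adjusted p = 0.271 and 0.117) or either RBMXL3 library (0.110 and 0.109).

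KIT transcripts differ by a short stretch in the juxtamembrane region of the receptor, printed because it separates the transcript that held the TPM of KIT from a form listed at 0. In GENCODE 29 the exon of KIT-201 ends at position 54726050 and that of KIT-202 at 54726038 of chromosome 4, and capitals mark the 12 coding bases present in KIT-201 only. Both stretches read 5′ to 3′ on the plus strand of GRCh38, spliced from chr4:54726009-54727247.
KIT-201: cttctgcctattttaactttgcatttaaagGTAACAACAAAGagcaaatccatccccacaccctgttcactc
KIT-202: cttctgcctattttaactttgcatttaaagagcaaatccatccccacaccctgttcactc
KIT-201 had 4.35 and 6.26 TPM in WT cells, 3.03 and 3.998 in GFP cells, and 3.13 and 2.26 in RBMXL3 cells. KIT-202 was listed at 0 in all 6 libraries. The TPM of KIT may be incomplete, as given above, so these values do not show which forms of KIT the cells use. In TPM the GFP and RBMXL3 values of KIT overlapped, and by summed TPM neither fall passed in RBMXL3 cells (-0.25 against GFP, adjusted p = 0.477; -0.73 against WT, adjusted p = 0.0724).

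Of 18 tested KIT signalling genes, 4 passed against GFP, all higher, a share near the 20.9% of all genes. Against WT 8 passed, 5 higher and 3 lower, beside 29.9% of all genes, and the medians were 0.12 and -0.01. ETV1, an ETS factor stabilised by KIT signalling, had 312 and 264 normalised reads in WT cells, 281 and 331 in GFP cells, and 601 and 582 in RBMXL3 cells. It rose by 0.90 and 0.98 (limma adjusted p = 0.000988 and 0.000302). SH2B3, an adaptor that restrains KIT signalling, rose by 0.41 and 0.77 (adjusted p = 0.0379 and 0.00101). SOS1, an exchange factor for RAS, was the 1 gene that passed in GFP cells against WT, beside 3.67% of all genes. It fell by 0.49 there.

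CXCR4 (ENSG00000121966.8, chr2:136114349-136118165), the chemokine receptor for CXCL12 that guides migrating germ cells, had 5888 and 6416 normalised reads in WT cells, 7356 and 5590 in GFP cells, and 4739 and 4501 in RBMXL3 cells. Both RBMXL3 libraries lay below every control, and the GFP libraries enclosed the WT values. CXCR4 fell by 0.47 against GFP (SE 0.12, limma adjusted p = 0.0186) and by 0.41 against WT (SE 0.12, adjusted p = 0.0253). Without GFP replicate 1, the highest control, the fall against GFP was 0.27, and without either RBMXL3 library its adjusted p was 0.0937 or 0.166. Against WT its adjusted p was 0.0922 or 0.157 without either WT library and 0.103 or 0.184 without either RBMXL3 library. By summed TPM neither fall passed (-0.23 against GFP, adjusted p = 0.321; -0.29 against WT, adjusted p = 0.205).

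The 11 tested partners of CXCR4 included none that passed against both controls, where 13.7% of all genes passed in the same direction. RGS16, a brake on G-protein signalling, was the 1 gene that passed against GFP, beside 20.9% of all genes. It fell by 0.42 (limma adjusted p = 0.0295). DESeq2 called 0 there, and limma had 2 at an unadjusted p under 0.05, beside 4963 of all 14292 tested genes. Against WT 5 passed, beside 29.9% of all genes, with GNAI2, ARRB1 and ACKR3 higher and GNAI3 and HIF1A lower. Its ligand CXCL12 did not pass, with a mean of 515 ± 45.1 (SD, n = 2) normalised reads in RBMXL3 cells against 469 ± 57.2 in GFP cells. In GFP against WT limma, edgeR and DESeq2 called 0 of the 11. There 5 had an unadjusted limma p under 0.05, beside 3190 of all 14292 tested genes.

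PDPN (ENSG00000162493.17, chr1:13583465-13617957), a mucin-like membrane glycoprotein, had 14112 and 12357 normalised reads in WT cells, 11451 and 12298 in GFP cells, and 11022 and 10508 in RBMXL3 cells. Both RBMXL3 libraries lay below every control, but the differences of -0.14 (SE 0.11) against GFP and -0.29 (SE 0.11) against WT did not pass (limma adjusted p = 0.373 and 0.0520). By summed TPM the RBMXL3 libraries lay above every control, with 349 and 315 in WT cells, 342 and 279 in GFP cells, and 373 and 369 in RBMXL3 cells. Of the 7 tested partners of podoplanin, EZR was the 1 that passed against GFP, beside 20.9% of all genes. Ezrin, the linker between the podoplanin tail and actin, fell by 0.36 against GFP and 0.44 against WT (limma adjusted p = 0.0355 and 0.00997). Against WT 4 passed, all lower, beside 15.3% of all genes lower and 29.9% in either direction. They added ROCK1, ROCK2 and LGALS8, and ROCK1 and ROCK2 were also lower in GFP cells. CLEC1B and CCL21, binding partners made by other cells, had no read in any library.

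The remaining 3 genes are a translational repressor, a kinase cofactor and an enzyme. NANOS3 (ENSG00000187556.8, chr19:13862063-13880757), which represses messages together with Pumilio proteins, was the lowest member in reads, with 90.6 and 87.3 normalised reads in WT cells, 86.9 and 113 in GFP cells, and 153 and 149 in RBMXL3 cells. Both RBMXL3 libraries exceeded every control. The ratio of group means was 1.51 against GFP and 1.70 against WT. The log2(value + 1) scale gives a smaller change for a gene this low. On it NANOS3 rose by 0.50 against GFP (SE 0.16, limma adjusted p = 0.0367) and by 0.63 against WT (SE 0.16, adjusted p = 0.00964). Against GFP the rise was 0.35 with an adjusted p of 0.138 without GFP replicate 1, its adjusted p was 0.0585 without either WT library and 0.207 or 0.185 without either RBMXL3 library, and DESeq2 gave 0.0962. Against WT the adjusted p was 0.0566 to 0.0749 without any 1 of the WT or RBMXL3 libraries.

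Of the 7 tested NANOS and Pumilio partners, NANOS1 was the 1 that passed against GFP, beside 20.9% of all genes. It rose by 0.52 (limma adjusted p = 0.0177). Against WT 2 passed, beside 29.9% of all genes. There DND1, an RNA-binding survival factor of germ cells, rose by 0.63 and CNOT7, a deadenylase, fell by 0.38. DND1 was also higher in GFP cells than in WT cells, by 0.70. NANOS2 and DAZL, which mark later germ cells, had no read in any library.

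TCL1A (ENSG00000100721.11, chr14:95709967-95714196), a cofactor that activates AKT kinases, passed between the 2 control groups, as KIT did. It had 196 and 241 normalised reads in WT cells, 393 and 374 in GFP cells, and 317 and 279 in RBMXL3 cells. The groups did not overlap, with RBMXL3 between WT and GFP. TCL1A rose by 0.76 in GFP cells against WT (SE 0.14, limma adjusted p = 0.0164) and by 0.41 in RBMXL3 cells against WT (SE 0.14, adjusted p = 0.0374). Its difference of -0.34 between RBMXL3 and GFP did not pass (SE 0.14, adjusted p = 0.0948). The rise in GFP cells did not pass without either WT library (adjusted p = 0.193 and 0.0790), and the rise in RBMXL3 cells against WT did not pass without WT replicate 1 (0.28, adjusted p = 0.259) or without either RBMXL3 library (adjusted p = 0.279 and 0.105).

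Exons of TCL1A share 216 bases, 9.66% of their length, with the opposite-strand gene ENSG00000257275. That gene had 4.23 to 9.54 normalised reads in the controls and 25.7 and 15.0 in RBMXL3 cells. Whether the counting used strand is not given in the sources used here, so reads in that stretch cannot be told apart. Of the 9 tested TCL1 and AKT genes, 2 passed against WT, 1 in each direction, beside 29.9% of all genes. The lipid phosphatase INPP5D was higher by 0.78. Limma, edgeR and DESeq2 called 0 against GFP, with 2 at an unadjusted limma p under 0.05, beside 4963 of all 14292 tested genes. In GFP against WT limma and edgeR called 0 and DESeq2 called 1. There 1 had an unadjusted limma p under 0.05, beside 3190 of all tested genes.

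ALPL (ENSG00000162551.14, chr1:21509372-21578412), the tissue-nonspecific alkaline phosphatase, had the smallest difference of the 10 from each control in RBMXL3 cells. It had 12077 and 11008 normalised reads in WT cells, 13013 and 10387 in GFP cells, and 11596 and 11494 in RBMXL3 cells. All 3 groups overlapped, with differences of -0.01 (SE 0.12) against GFP and 0.0019 (SE 0.12) against WT (limma adjusted p = 0.963 and 0.992). The 95% interval against GFP, -0.27 to 0.25, reflects only the spread between these libraries. Of the 6 tested genes of its family, 2 passed in each of the 3 comparisons, 1 higher and 1 lower. Of all tested genes, 20.9% passed against GFP, 29.9% against WT and 3.67% between GFP and WT. ALPG, the germ cell alkaline phosphatase, rose by 0.51 against GFP and 1.27 against WT (limma adjusted p = 0.0382 and 0.000202), and also by 0.76 in GFP cells against WT (adjusted p = 0.0271). ALPG is nearly identical to ALPP, so reads may be split between them. ENPP1, which makes pyrophosphate, fell by 0.44, 0.87 and 0.43 in the same comparisons (adjusted p = 0.0112, 0.000142 and 0.0418).

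Read against the background, the counts of members were 4 of 10 against GFP, 2 higher and 2 lower, where 20.9% of all genes passed, 10.5% higher and 10.4% lower. Against WT 6 of 10 passed, 3 in each direction, where 29.9% of all genes passed, 14.6% higher and 15.3% lower, and between GFP and WT 2 of 10 passed, 1 in each direction, where 3.67% did, 1.76% higher and 1.91% lower. The 10 were chosen with earlier results of these data known, so setting their counts beside those shares is a description only. The median difference of the 10 was -0.13 against GFP and -0.17 against WT, beside 0.00087 and -0.01 over all genes. Both RBMXL3 libraries lay outside the 4 controls for 6 of the 10, 2 above and 4 below, as they did for 46.1% of all tested genes, 22.5% above and 23.6% below. Without RBMXL3 replicate 1 or without replicate 2, limma called 0 of the 10 against GFP, with 4 at an unadjusted p under 0.05, and KIT alone against WT. Without the filter on low values limma called 0 against GFP, with 6 at an unadjusted p under 0.05, and KIT and PRDM1 against WT. The lone library left in a group when 1 is removed is assumed to vary like the other groups. Without RBMXL3 replicate 1 or 2 the number of all genes called against GFP was 844 or 679 in place of 2986.

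**Figure D3:**
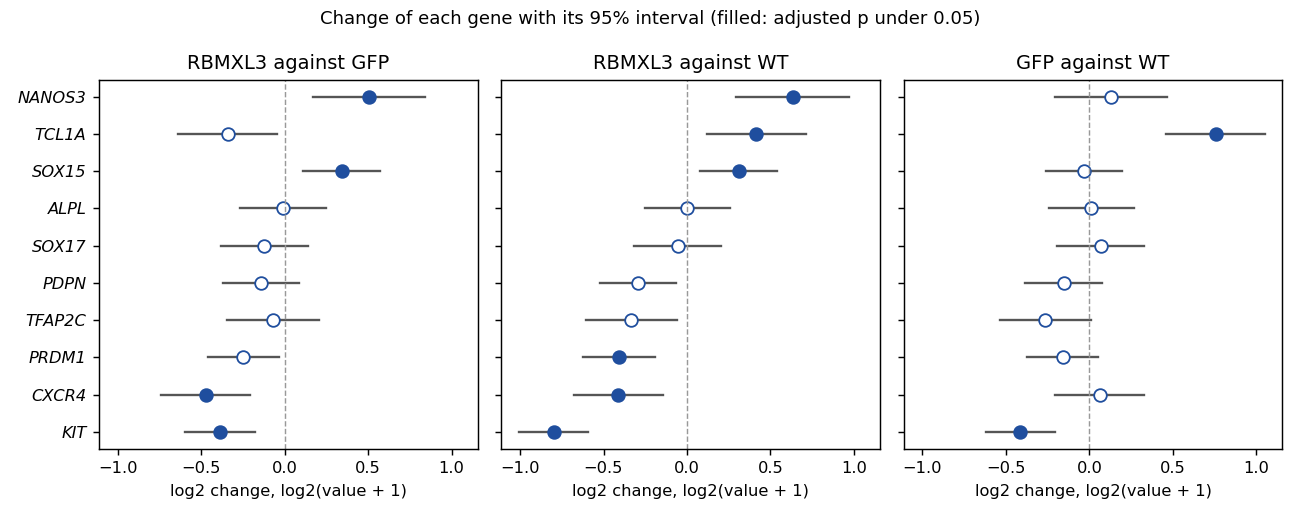
Difference of each gene on the log2(value + 1) scale (horizontal) with its 95% interval in the 3 comparisons (panels), where filled points passed at an adjusted p under 0.05 and open points did not. NANOS3 and SOX15 lie to the right of 0 and KIT and CXCR4 to the left in both comparisons of RBMXL3 cells, and TCL1A and KIT are the filled points of GFP against WT.

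The transcripts of the 10 genes were compared to see which forms carried the differences. Of their 52 listed transcripts, 27 reached the level needed for testing (1 TPM in at least 2 libraries). Limma called 0 of the 27 in each comparison, where it called 1.25% of all 44693 tested transcripts against GFP, 1.53% against WT and 0% between GFP and WT. At an unadjusted p under 0.05 there were 7 against GFP, 5 against WT and 4 between GFP and WT. The share of all tested transcripts under that unadjusted threshold was not counted, so these counts have no background. SOX17 had 1 listed transcript, and 1 form held most of the TPM of CXCR4 (CXCR4-201, at least 98.8% in each library), TFAP2C (TFAP2C-201, at least 95.6%) and PRDM1 (PRDM1-203, at least 88.7%, the lowest in RBMXL3 replicate 1). PDPN was the most divided, with 9 of its 11 transcripts at the tested level.

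The 2 member transcripts with the lowest adjusted p-values against WT belonged to PDPN and SOX15. PDPN-209 had 4.90 and 1.91 TPM in WT cells, 23.9 and 4.07 in GFP cells, and 62.5 and 73.0 in RBMXL3 cells. Both RBMXL3 libraries exceeded every control, and GFP replicate 1 stood above the other controls. As a share of the TPM of PDPN, it was 1.40% and 0.606% in WT cells, 6.99% and 1.46% in GFP cells, and 16.7% and 19.8% in RBMXL3 cells. The differences of 2.61 (SE 0.80) against GFP and 4.05 (SE 0.80) against WT on the log2(TPM + 1) scale did not pass (limma adjusted p = 0.193 and 0.0963). The difference from WT passed without either GFP library (adjusted p = 0.0419 and 0.0416), and its adjusted p was 0.260 to 0.370 without a WT or RBMXL3 library. Without PDPN-209, the summed TPM of PDPN was 344 and 313 in WT cells, 318 and 275 in GFP cells, and 311 and 296 in RBMXL3 cells, and the RBMXL3 libraries then lay within the range of the controls.

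The ends of the coding sequences of PDPN show how PDPN-209 differs from the 2 long forms with the most TPM. PDPN-212 had 180 and 139 TPM in WT cells, 141 and 152 in GFP cells, and 139 in each RBMXL3 library, and PDPN-202 had 83.7 and 90.5, 30.9 and 65.7, and 67.1 and 68.4. Each sequence starts at position 13614300 of chromosome 1, at the start of the same exon on the plus strand of GRCh38, and runs 5′ to 3′ to the stop codon (chr1:13614300-13615911 for the spliced PDPN-202 and PDPN-212, chr1:13614300-13614415 for PDPN-209). Capitals mark the bases after the splice donor that PDPN-202 uses.
PDPN-202: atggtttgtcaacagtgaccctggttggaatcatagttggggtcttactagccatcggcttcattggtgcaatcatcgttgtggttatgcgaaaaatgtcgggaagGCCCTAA
PDPN-212: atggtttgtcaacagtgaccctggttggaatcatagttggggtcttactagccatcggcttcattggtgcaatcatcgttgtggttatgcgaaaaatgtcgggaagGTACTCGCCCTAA
PDPN-209: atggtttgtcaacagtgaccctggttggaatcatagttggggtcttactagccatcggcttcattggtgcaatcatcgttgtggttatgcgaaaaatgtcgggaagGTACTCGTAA
PDPN-202 leaves this exon at position 13614405 and PDPN-212 at 13614411, and both join the last exon at 13615905. PDPN-209 reads on through both donors and meets a stop codon at chr1:13614413-13614415, and its transcript ends at 13614514. It has 786 bases, against 2738 in PDPN-212, whose last exon has 2053 bases, only 4 of them coding before the stop codon.

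SOX15-203 had 0.273 and 1.48 TPM in WT cells, 0.459 and 0.333 in GFP cells, and 6.72 and 7.82 in RBMXL3 cells. Both RBMXL3 libraries exceeded every control. Its share of the TPM of SOX15 was 0.201% and 1.28% in WT cells, 0.433% and 0.307% in GFP cells, and 4.23% and 4.98% in RBMXL3 cells. The differences of 2.56 (SE 0.38) against GFP and 2.21 (SE 0.38) against WT did not pass (limma adjusted p = 0.0624 and 0.0759). The main form SOX15-201 had 128 and 111 TPM in WT cells, 103 in each GFP library, and 143 and 134 in RBMXL3 cells, so it held most of the SOX15 signal in every library.

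The sequences around the end of the first coding exon of SOX15 are printed because the minor form differs there. They run 5′ to 3′ on the minus strand of GRCh38, from chr17:7588517-7589203 for the spliced SOX15-201 and chr17:7589140-7589203 for SOX15-203, and capitals mark the bases after the splice donor of SOX15-201.
SOX15-201: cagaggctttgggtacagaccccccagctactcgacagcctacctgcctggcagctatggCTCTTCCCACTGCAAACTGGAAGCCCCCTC
SOX15-203: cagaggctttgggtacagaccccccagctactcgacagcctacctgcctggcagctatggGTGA
SOX15-201 splices at position 7589144 to its last exon. SOX15-203 is annotated as a single exon, chr17:7588999-7590091, that continues past this donor and stops at chr17:7589140-7589142. In both PDPN-209 and SOX15-203 the transcript therefore reads past a donor that the main forms use and ends its reading frame within a few bases.

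**Figure D4:**
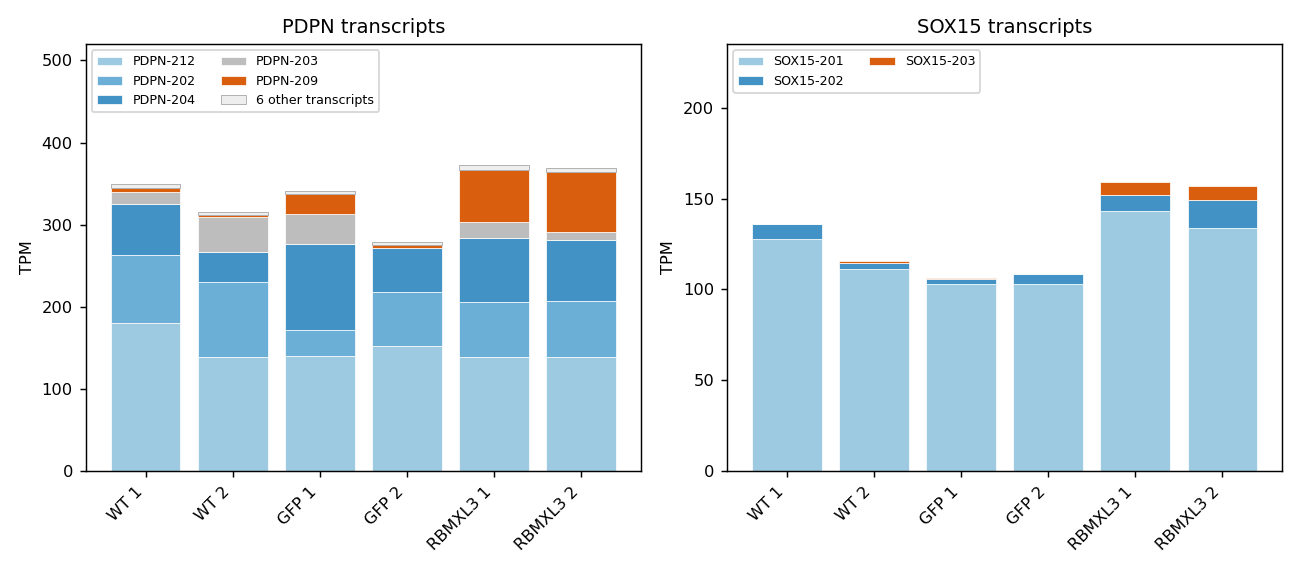
TPM (vertical, linear scale from 0) of the transcripts of PDPN and SOX15 in each library, stacked by transcript, with the forms that read past a splice donor in orange. PDPN-209 reaches 62.5 and 73.0 TPM and SOX15-203 reaches 6.72 and 7.82 TPM in the RBMXL3 libraries, above all 4 controls.

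Among the other transcripts, some differed widely between the GFP libraries. PDPN-203 had 36.9 TPM in GFP replicate 1 and was listed at 0 in replicate 2. ALPL-202 had 44.0 TPM in GFP replicate 1 and 4.43 to 12.0 in the other 5 libraries, and ALPL-207 had 51.0 there and 3.66 to 17.9 elsewhere. ALPL-204 carried most of the gene in every library, with 230 to 293 TPM. For TCL1A, TCL1A-203 had 1.27 and 4.29 TPM in WT cells, 7.58 and 6.01 in GFP cells, and 5.33 and 6.60 in RBMXL3 cells, while TCL1A-201 had 6.14 to 10.4 TPM and its groups overlapped. NANOS3-201 followed its gene, with 7.001 and 6.88 TPM in WT cells, 5.30 and 7.93 in GFP cells, and 11.6 in each RBMXL3 library.

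For the 4 members that passed against both controls, the tested genes with the most similar profile over the 6 libraries were found by the root mean square difference of the centred log2 values. For KIT they were ZNF480 at 0.040, ENPP1 at 0.044 and INA at 0.045. INA, a neuronal intermediate filament, had 1850 and 1578 normalised reads in WT cells, 1196 and 1312 in GFP cells, and 926 and 934 in RBMXL3 cells, stepping down as KIT did. For CXCR4 they were TEC at 0.037, HRAS at 0.043 and GPHN at 0.046, for SOX15 SVBP at 0.025, ENSG00000283405 at 0.027 and METTL15 at 0.034, and for NANOS3 ENSG00000289199 at 0.027, MVB12A at 0.030 and IER5 at 0.034. These likenesses rest on 6 libraries that share their groups and are a description only.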

How the data were processed

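The 6 TCam-2 libraries, 2 per group, were prepared from column-purified RNA with the TruSeq stranded kit for polyadenylated RNA, per the labels' protocols. The submitters' processing notes name Trim Galore 0.6.10, STAR 2.7.11a, Salmon 1.10.2 and DESeq2 with GRCh38 and hg38. Their roles, the read counter, its annotation and its use of strand are not given in the sources used here. The deposited gene values are a normalised signal: in each library they are whole reads divided by 1 size factor, and 100% of the 145320 nonzero values came out whole within 0.01. Isoform levels are the TPM values that the authors deposited. Symbols, exons and coding sequences came from GENCODE 29 on GRCh38.

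Gene values were divided by a common factor of 23.9 and taken as log2(value + 1). Genes with at least 1 in at least 2 libraries were tested with limma 3.58.1 (R 4.3.3) in 1 fit of the 6 libraries with an intensity trend, two-sided, with Benjamini-Hochberg adjustment over all tested genes and a threshold of 0.05. Transcripts with at least 1 TPM in 2 libraries were tested in the same way. The alternatives were a smaller pseudocount (0.1), a minimum mean of 5, no filter, quantile normalization, edgeR 4.0.16 and DESeq2 1.42.0 on the recovered reads, summed TPM, robust moderation, a replicate block and leaving out each library. Shares of the TPM of a gene were added after the data were seen. On simulated data with 200 genes changed by 1 on the log2 scale, 71.9% were recovered for RBMXL3 against GFP and 68.3% for RBMXL3 against WT, among 14064 genes. False calls numbered 11 and 10. The simulated spread was assumed and not taken from these libraries. The differences of the 10 genes were under 1, so this recovery does not measure how often changes of their size are found.

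The members and gene lists were chosen with earlier results of these data known. Beside the 10 members, genes were named by rule: up to 4 per list that passed in the same direction against both controls, by size, and the 3 nearest profiles of each member that passed against both. Other genes of lists with 5 or fewer passing genes were named after their values were seen. Some genes that the rule names are not reported here. Promoters and protein sequences were not used here.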

Additional observations from a re-analysis of the deposited data

How the results depend on the processing

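The count of members that passed was 4 against GFP, 6 against WT and 2 for GFP against WT. Without a filter on low values it was 0, 2 and 0 (limma, with 6, 7 and 2 at an unadjusted p under 0.05), and by summed TPM 2, 2 and 0 (3, 5 and 2 unadjusted). The genes of any kind under the unadjusted threshold numbered 6237, 7257 and 3951 without the filter. By summed TPM they numbered 4038, 4476 and 2214, and the set of tested genes differs between these settings. With a replicate block the count of members was 2, 4 and 1, where 2386, 3697 and 191 of all genes passed, in place of 2986, 4271 and 524. With quantile normalization it was 1 for GFP against WT, where 327 of all genes passed. Without 1 library at a time the counts ranged from 0 to 5, 1 to 8 and 0 to 3, and the member transcripts, of which 0 passed, from 0 to 2 against GFP, 0 to 1 against WT and 0 to 0 for GFP against WT. Leaving out 1 library also moved the number of all genes that passed, widely and in each comparison. The ranges of the member genes therefore do not set them apart from other genes. The correlations of deviations between libraries of the same number were -0.16, 0.03 and -0.09 over all tested genes. They cannot tell whether libraries of the same number shared a culture or preparation, which the labels do not give.

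Some differences that did not pass changed sign. With quantile normalization SOX17 against WT was 0.065, TFAP2C against GFP 0.21, PDPN against GFP 0.010, ALPL against GFP 0.13 and SOX15 in GFP against WT 0.018. By summed TPM, where the median of all genes was 0.13 against GFP and -0.09 in GFP against WT, TFAP2C, PDPN and ALPL against GFP were 0.12, 0.26 and 0.14, PDPN against WT 0.16, and SOX17, CXCR4 and ALPL in GFP against WT -0.023, -0.061 and -0.091. Without 1 library at a time, SOX17 ranged from -0.28 to 0.036 against GFP, -0.21 to 0.10 against WT and -0.051 to 0.19 in GFP against WT. TFAP2C against GFP ranged from -0.19 to 0.052, and ALPL from -0.17 to 0.15, -0.065 to 0.069 and -0.15 to 0.17 in the 3 comparisons. In GFP against WT, SOX15 ranged from -0.17 to 0.10, CXCR4 from -0.14 to 0.26, NANOS3 from -0.026 to 0.28 and SOX15-203 from -0.83 to 0.13. The cause was not tested. The other differences of single genes and transcripts were counted under the alternatives that kept all 6 libraries. Of these, 255 kept their direction and their side of the threshold, 29 no longer passed and 4 newly passed. The 255 include many differences that did not pass in the main fit, and only differences that passed there could stop passing. The 3 counts therefore do not measure how stable the passing differences were. NANOS3 and TCL1A, with 94 to 425 reads per library, are the members that depth limits most.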
